A study of Mus musculus with 3 samples.

Results

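Monocyte-like phagocytes without C1q were examined in tumors of the B16-F10 melanoma line by single-cell RNA-Seq. They were the barcodes with a UMI (1 UMI is 1 counted RNA molecule) of at least 3 of 8 phagocyte genes (Lyz2, Csf1r, Cd68, Cd14, Ms4a6c, Fcgr1, Ccr2 and Itgam) and with fewer than 2 of the 3 genes of complement C1q (C1qa, C1qb and C1qc) detected. Barcodes with a UMI of Cd3e, Cd79a, Ncr1, Flt3, Siglech or Col1a1 were left out, as were those in which the pigment cell genes Dct and Pmel made up 0.5% or more of the UMIs. The rule found 205 cells among the 24668 barcodes that had 200 or more genes and no more than 20% of their UMIs from mitochondria. Of these, 70 of 8568 were in shMib2 replicate 1, 130 of 7283 were in shMib2 replicate 2 and 5 of 8817 were in shCtrl. Since the genes of the rule chose the cells, their levels are given as a description.

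The libraries were made from tumors of B16-F10, a mouse melanoma cell line, grown in C57BL/6J mice aged 6 to 8 weeks. The tumor cells carried shRNA labelled as directed against Mib2 (shMib2 replicate 1 and replicate 2) or a control shRNA (shCtrl). The titles of the shMib2 libraries do not say whether they stand for 2 different shRNAs or for replicates of the same one. Spread between these libraries can therefore include a difference between shRNAs. All tumors were dissociated with enzymes and depleted of red blood cells. Each library pooled the tumors of 3 mice, so single mice cannot be told apart, and shCtrl had no second library. The study asked how less MIB2, an E3 ubiquitin ligase, changes the immune cells of the tumor.

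Classical monocytes leave the bone marrow through CCR2, enter inflamed tissue and tumors, and there turn into macrophages or into antigen-presenting cells that resemble dendritic cells. In the mouse they carry high Ly6C, the product of Ly6c1 and Ly6c2, and lysozyme M, the product of Lyz2. C1q is made mainly by tissue macrophages, which makes its absence a common way to set recently arrived monocytes apart from mature macrophages. In tumors such cells are known both for inflammatory cytokines and for enzymes that restrain T cells, such as arginase 1.

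The libraries held 8388 to 9558 barcodes and 190904274 to 243926188 UMIs. Mib2 (chromosome 4, 155654677 to 155669198, minus strand, mm10) was not lower in the tumor cells of the libraries labelled shMib2: barcodes with Dct and Pmel at 0.5% or more of UMIs had 3.13 CPM (UMIs scaled to the depth of the sum) in shMib2 replicate 1, 2.66 CPM in shMib2 replicate 2 and 2.49 CPM in shCtrl. The groups are therefore named by their labels throughout. The monocyte-like phagocytes held 3 Mib2 UMIs in each shMib2 library and 0 in shCtrl. Between 20 and 30 barcodes were shared by any pair of libraries, and 1 of the 205 monocyte-like phagocytes carried such a barcode. A doublet score based on simulated pairs marked 0, 3 and 0 of them in shMib2 replicate 1, shMib2 replicate 2 and shCtrl.

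The cells differed in depth between libraries, which bears on how often a gene was detected. Their median was 2277.5 UMIs in shMib2 replicate 1, 4456 in shMib2 replicate 2 and 2422 in shCtrl, with 1061.5, 1623 and 862 genes in the same order. Summed over cells, these came to 183673, 598757 and 13967 UMIs, so that levels in shCtrl have the widest intervals. Confidence intervals are 95% Wilson intervals for shares and exact Poisson intervals for sums of UMIs, and both cover counting error only.

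The label was checked against marker genes that the rule did not use. Ly6c2 (chromosome 15, 75108158 to 75111970, minus strand) had a UMI in 38.6% of the cells of shMib2 replicate 1, 62.3% of shMib2 replicate 2 and 20% of shCtrl (1 of 5 cells). Thinned to 1000 UMIs per cell, the Ly6c2 shares were 32.8%, 41.3% and 0%, and 3, 4 and 0 cells were too shallow to enter. Plac8, a gene of blood monocytes and other leukocytes, was detected in 77.1%, 89.2% and 80% of the cells, against 23.3%, 34.3% and 17.9% of B cells, at medians of 841.5, 1464.5 and 843 UMIs. The monocyte genes Chil3 and F13a1 were found in 21.4% and 28.6% of the cells of shMib2 replicate 1 and in 30% and 48.5% of those of shMib2 replicate 2, and in no B cell of any library. Chil3 had no UMI in the shCtrl cells. Phagocytes with 2 or 3 C1q genes had both genes too. In shMib2 replicates 1 and 2, Chil3 was at 370 and 848 CPM against 658 and 104 CPM in those phagocytes. F13a1 was at 196 and 309 CPM against 402 and 224 CPM.

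Genes of other myeloid cells were checked as well. Of 15 neutrophil genes, 6, 8 and 1 had a UMI in shMib2 replicate 1, shMib2 replicate 2 and shCtrl, at 223, 272 and 71.6 CPM in all. The neutrophil genes S100a8 and S100a9 had 2 and 0 UMIs in shMib2 replicate 1, 14 and 1 in shMib2 replicate 2, and 0 in shCtrl. Cxcr2 and Retnlg, further neutrophil genes, and all 8 genes listed for mast cells and basophils were at 0 in the 3 libraries, while Hcar2, a receptor on the same neutrophil list, had 17, 38 and 0 UMIs. Of 10 genes listed for nonclassical monocytes, 8, 9 and 2 had a UMI, at 686, 711 and 215 CPM in all. Most of this was Nr4a1, with 99, 309 and 2 UMIs, an activation gene that was also found in 37.2%, 56.4% and 40.3% of B cells. Cx3cr1 and Ace, which mark the patrolling monocytes of the blood, had 2 and 0 UMIs in shMib2 replicate 1, 21 and 4 in shMib2 replicate 2, and 0 in shCtrl. Of the 10 T cell genes listed, summed levels were 109, 35.1 and 0 CPM. Dendritic cell genes were present in part of the cells. Cd209a, a lectin of monocyte-derived and conventional dendritic cells, was detected in 15.7% of the cells of shMib2 replicate 1 and 16.9% of those of shMib2 replicate 2. Xcr1 and Clec9a, which define cross-presenting dendritic cells, were detected in 5.7% of the cells each in shMib2 replicate 1, and in 3.8% and 3.1% in shMib2 replicate 2. A UMI of at least 1 of these 3 genes was found in 17 of 70 and 28 of 130 cells, and in 0 of the 5 cells of shCtrl. The gate thus also held cells with dendritic cell genes but no UMI of Flt3, and the monocyte name does not describe each cell.

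**Figure D1:**
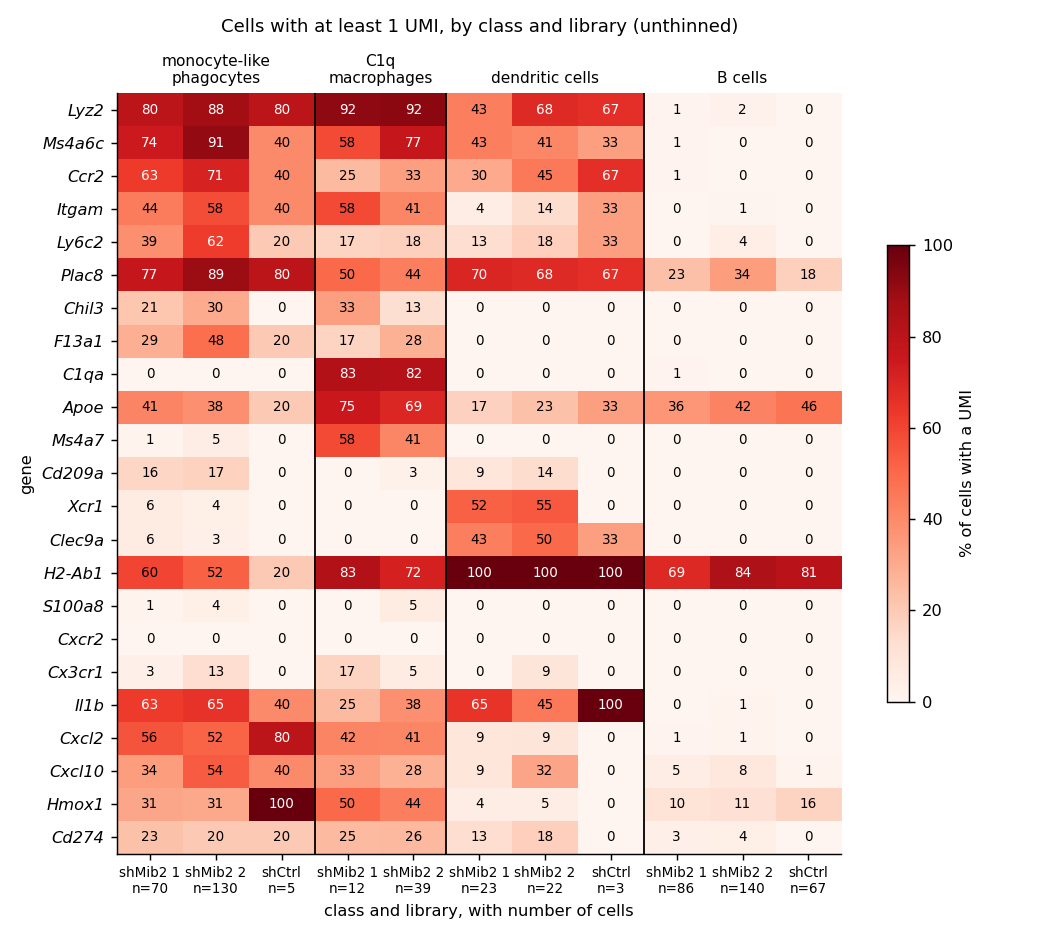
Share of cells with at least 1 UMI of 23 genes (rows) in monocyte-like phagocytes, C1q macrophages, dendritic cells and B cells of each library (columns, with the number of cells). Numbers in the cells are percentages without correction for depth. Plac8 was found in 77.1%, 89.2% and 80% of monocyte-like phagocytes, and S100a8 and Cxcr2 in few or none of them.

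The first comparison asked how frequent these cells were in each tumor. They made up 0.817% of all cells in shMib2 replicate 1 (interval 0.647 to 1.03%), 1.78% in shMib2 replicate 2 (1.51 to 2.12%) and 0.0567% in shCtrl (0.0242 to 0.133%). The shares of both libraries labelled shMib2 lay above that of shCtrl, 14.4-fold and 31.5-fold, with a mean ratio of 22.9 ± 12.1 (SD, n = 2 shMib2 libraries). Both ratios share the shCtrl library with its 5 cells, so this SD and the later ones leave out its counting error. The size of the ratio depended on the cells counted. Among barcodes with Dct and Pmel under 0.5% of UMIs, which leaves out most tumor cells, the shares were 3.66%, 4.19% and 0.779% in the same order, a mean ratio of 5.04 ± 0.476. Among those that also had a UMI of Ptprc (CD45, the common leukocyte antigen), 42 of 820, 99 of 1492 and 2 of 114 were monocyte-like phagocytes. Those shares were 5.12% (3.81 to 6.85%), 6.64% (5.48 to 8.01%) and 1.75% (0.482 to 6.17%), so that the intervals overlapped, and the mean ratio was 3.35 ± 0.61. With 1 library against 2, an exact permutation test cannot give a p below 0.3333, and no test was made.

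Monocyte-like phagocytes outnumbered phagocytes with C1q in every library. C1q macrophages, which meet the same rule but with 2 or 3 C1q genes detected, numbered 12 in shMib2 replicate 1, 39 in shMib2 replicate 2 and 0 in shCtrl. Monocyte-like phagocytes were 85.4% of the phagocytes in shMib2 replicate 1 (76.1 to 91.4%), 76.9% in shMib2 replicate 2 (70 to 82.6%) and 5 of 5 in shCtrl (56.6 to 100%). These intervals overlap, and the ratio of shMib2 to shCtrl was 0.811 ± 0.0597 (SD, n = 2). Flt3-positive dendritic cells numbered 23, 22 and 3, with mean ratio 8.38 ± 0.699 for their shares of all cells.

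**Figure D2:**
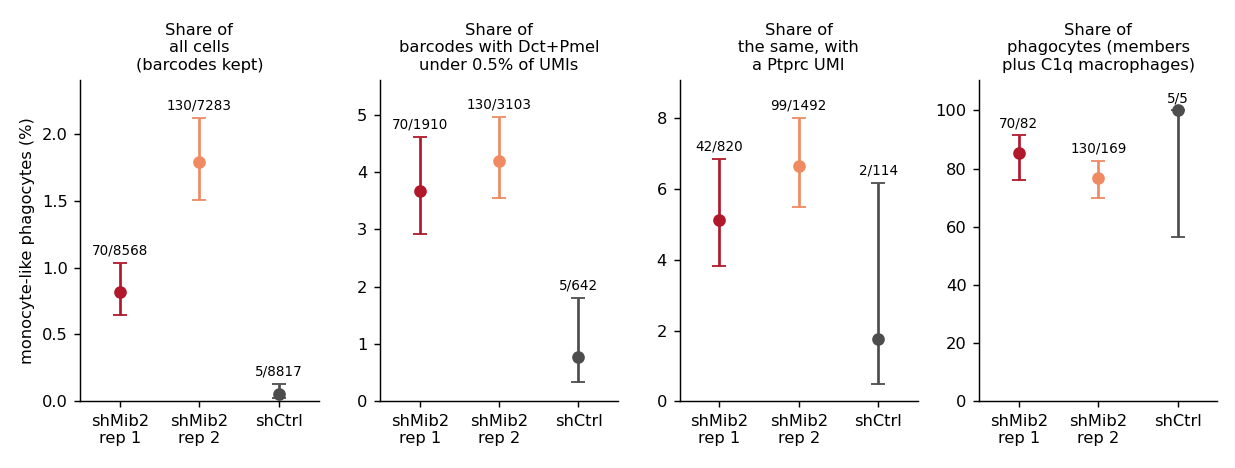
Monocyte-like phagocytes as a percentage of 4 denominators in shMib2 replicate 1, shMib2 replicate 2 and shCtrl. Points are shares, bars are 95% Wilson intervals, and the numbers above are cells over the denominator. Both shMib2 libraries lie above shCtrl in the first panels, and the intervals overlap among barcodes with a Ptprc UMI and among phagocytes.

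Many cells lay close to the thresholds. Exactly 3 of the 8 phagocyte genes were detected in 19, 20 and 2 monocyte-like phagocytes of shMib2 replicate 1, shMib2 replicate 2 and shCtrl, and 18, 50 and 3 further barcodes missed the rule with exactly 2. A single C1q gene was detected in 11, 15 and 0 of them, while 6, 8 and 0 phagocytes fell outside with exactly 2. A UMI of Flt3 alone kept out 9, 14 and 2 barcodes, more than any of the other 5 excluding genes. Of the rule's genes, Lyz2 was the most abundant, with 5711, 7546 and 2649 CPM in the 3 libraries, while Ms4a6c had 762, 929 and 143 CPM and Cd14 had 746, 952 and 1718 CPM. Csf1r, the receptor for the macrophage growth factor CSF1, was detected in 30%, 36.2% and 60% of the cells, and the last of these is 3 of 5 cells.

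Within the shMib2 libraries the cells were split by MHC class II, the molecules that present antigen to CD4+ T cells. At least 2 of H2-Aa, H2-Ab1 and H2-Eb1 were detected in 39 of 70 cells of shMib2 replicate 1 and 62 of 130 cells of shMib2 replicate 2. Median depth was 2613 UMIs with and 1935 without these genes in shMib2 replicate 1, and 4840 and 4143 UMIs in shMib2 replicate 2. The cells with MHC class II had less of the monocyte genes. Ly6c2 was at 315 CPM with and 1030 CPM without MHC class II in shMib2 replicate 1, and at 226 and 1242 CPM in shMib2 replicate 2. Chil3, a chitinase-like protein of monocytes, was at 24.9 and 1030 CPM in shMib2 replicate 1 and at 82.7 and 1695 CPM in shMib2 replicate 2. Lyz2 showed the same order, with 2894 against 11096 CPM and 2808 against 12784 CPM. Plac8 hardly differed, at 2123 and 2203 CPM in shMib2 replicate 1 and at 2350 and 2909 CPM in shMib2 replicate 2.

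The dendritic cell genes ran the other way. Cd209a (chromosome 8, 3743397 to 3748984, minus strand) was at 282 CPM with and 31.7 CPM without MHC class II in shMib2 replicate 1, and at 321 and 21.1 CPM in shMib2 replicate 2. Of the cells with a Cd209a UMI, 9 of 11 in shMib2 replicate 1 and 20 of 22 in shMib2 replicate 2 had MHC class II. The cells with Xcr1 or Clec9a, 6 in each shMib2 library, had 20986 and 18264 CPM of Cst3, a protease inhibitor abundant in dendritic cells, against 3687 and 3022 CPM in the other cells. They also had 1098 and 1441 CPM of Irf8, a transcription factor of dendritic cells, against 360 and 226 CPM. The cells with Cd209a had 3884 and 3145 CPM of Cst3 and 208 and 90.6 CPM of Irf8. The splits were chosen on the same cells, and no test was made between them.

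Levels of 6 genes linked to suppression or inflammation are given by the same split, as a description. They are part of longer lists, and the share of all genes that were higher without MHC class II is not given. Arg1, Spp1, Cxcl2 and Ccl2 were higher without MHC class II in both libraries, and Cxcl10 by little. Arg1, arginase 1, was at 41.5 CPM with and 872 CPM without MHC class II in shMib2 replicate 1, and at 66.8 and 225 CPM in shMib2 replicate 2. Spp1, osteopontin, was at 813 and 1966 CPM in shMib2 replicate 1 and at 277 and 2321 CPM in shMib2 replicate 2. Cxcl2, a chemokine that attracts neutrophils, was at 1982 and 9400 CPM and at 1679 and 6788 CPM, and Ccl2, the ligand of CCR2, at 216 and 2013 CPM and at 216 and 1270 CPM. Il1b, interleukin 1 beta, did not follow the split: it was at 1567 and 2172 CPM in shMib2 replicate 1 and at 2102 and 1773 CPM in shMib2 replicate 2. Cxcl10, a ligand of CXCR3 induced by interferons, was at 804 and 840 CPM and at 999 and 1224 CPM.

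**Figure D3:**
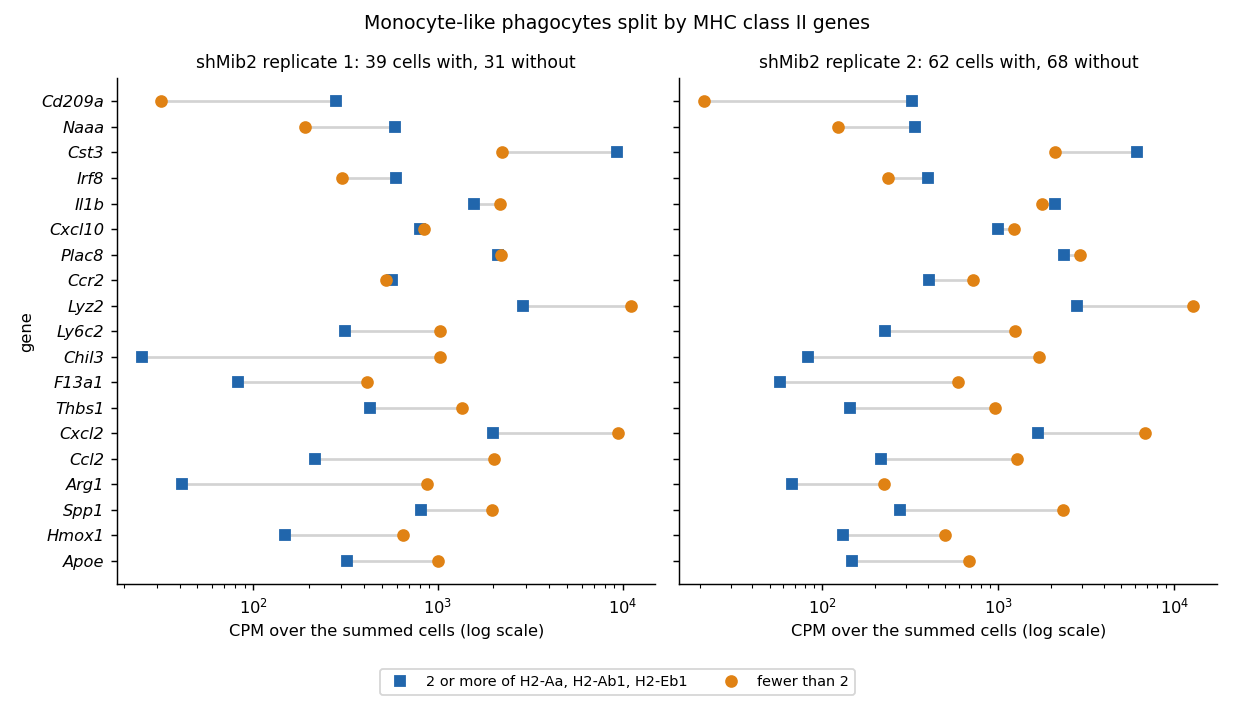
CPM of 19 genes over the summed monocyte-like phagocytes with at least 2 of H2-Aa, H2-Ab1 and H2-Eb1 (squares) and with fewer (circles), on a log axis, in shMib2 replicate 1 and shMib2 replicate 2. Cd209a, Naaa, Cst3 and Irf8 lie further right with MHC class II, Ly6c2, Chil3, F13a1 and Arg1 further right without it, and Il1b changes order between the libraries.

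Inflammatory RNA was abundant but uneven from cell to cell. Cxcl2 had 832 UMIs (4530 CPM) in shMib2 replicate 1, 2458 (4105 CPM) in shMib2 replicate 2 and 137 (9809 CPM) in shCtrl. Per cell, Cxcl2 ranged from 0 to 41974 CPM with a median of 761 CPM in shMib2 replicate 1, and from 0 to 35023 CPM with a median of 624 CPM in shMib2 replicate 2. In B cells Cxcl2 was detected in 1.2%, 1.4% and 0% of the cells, against 55.7%, 51.5% and 80% of the monocyte-like phagocytes. Il1b was detected in 62.9%, 65.4% and 40% of the monocyte-like phagocytes and in 0%, 1.4% and 0% of B cells. The 2 genes had close levels in the libraries labelled shMib2, and shCtrl rested on 5 cells.

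Most cells with Cxcl10 also had Il1b, while many cells with Il1b had no UMI of Cxcl10. Depth limits how often both can be detected in 1 cell. Of the cells of shMib2 replicate 1, 18 had both Il1b and Cxcl10, 26 only Il1b, 6 only Cxcl10 and 20 neither. In shMib2 replicate 2 these numbers were 55, 30, 15 and 30. Cells with Spp1 or Arg1 numbered 25 of 70 and 33 of 130. They had 10015 and 9374 CPM of Cxcl2, against 1802 and 2225 CPM in the cells with neither, and 672 and 876 CPM of Hmox1, heme oxygenase 1, against 147 and 99.7 CPM. Their median depth, 1846 and 3866 UMIs, was below the 2364 and 4646 UMIs of the other cells. Only 1 cell in each shMib2 library had both Cd209a and either Spp1 or Arg1.

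The cells were then compared with the C1q macrophages of the same libraries, to see how they differ beyond C1q. Counts were summed per class and library and tested with edgeR's quasi-likelihood test in the 2 shMib2 libraries, with the library as a block. The C1q macrophages of this comparison were 12 and 39 cells, and shCtrl had none. Of 2353 genes tested, 10 were higher in monocyte-like phagocytes (0.425%) and 61 were lower (2.59%), while 130 and 190 had an unadjusted p below 0.05. The median log2 fold change over all tested genes was 0.02. Median depth was higher in monocyte-like phagocytes, 2277.5 and 4456 UMIs, than in C1q macrophages, 1890 and 2739 UMIs. With cells thinned to 1000 UMIs, 5 genes were higher and 22 lower of 803 tested, and Apoe, at −4.02, and Mmp12, at −3.51, still passed. Genes that vary together with C1q differ in part through the rule itself.

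These calls were few and unsteady. DESeq2 called 0 genes higher and 20 lower, with 26 and 69 at an unadjusted p below 0.05, and edgeR with DESeq2's size factors called 0 and 11, with 112 and 171 unadjusted. Without the 17 and 28 monocyte-like phagocytes that had a UMI of Xcr1, Clec9a or Cd209a, an alternative chosen after the values were seen, edgeR called 0 of 1866 genes higher and 1 lower, Apoe, with 58 and 104 at an unadjusted p below 0.05. Apoe was also the only one of the 22 genes named by rank to pass under each of the 9 alternatives tried.

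Among the lower genes were several of resident and lipid-handling macrophages. Apoe (chromosome 7, 19696109 to 19699188, minus strand), which encodes apolipoprotein E, had 555 and 399 CPM in the monocyte-like phagocytes of shMib2 replicates 1 and 2, against 12796 and 5559 CPM in their C1q macrophages. Its log2 fold change was −4.24 ± 0.40 (SE, adjusted p = 2.69e-05, edgeR). Apoe was detected in 41.4% and 38.5% of the monocyte-like phagocytes, close to the 36% and 42.1% of B cells. It was nevertheless higher than in dendritic cells, which had 44.7 and 38.3 CPM (3.45 ± 0.32, adjusted p = 0.000137, edgeR). How much of the Apoe in monocyte-like phagocytes is background was not tested. Of the 12 macrophage genes tested, 9 were lower: Apoe, Mrc1, Maf, Ms4a7, Trem2, Pf4, Selenop, Folr2 and Cbr2, with a list median of −2.54. Ms4a7, a membrane protein of tissue macrophages, had 2 and 12 UMIs in monocyte-like phagocytes against 12 and 38 UMIs in C1q macrophages, which is 439 and 283 CPM in the macrophages (−4.24 ± 0.46, adjusted p = 5.24e-05). Folr2, the folate receptor of resident macrophages, had 0 and 16.7 CPM against 439 and 104 CPM (−3.87 ± 0.73, adjusted p = 0.00684), and its call was lost under 4 of 6 alternatives.

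Of the 4 matrix metalloproteinase genes with values here, 2 were lower. Mmp12, macrophage elastase, had 98.0 and 26.7 CPM in monocyte-like phagocytes against 1133 and 954 CPM in C1q macrophages (−4.48 ± 0.45, adjusted p = 3.32e-05). Mmp13, a collagenase, had 10.9 and 3.34 CPM against 329 and 194 CPM (−5.41 ± 0.61, adjusted p = 5.35e-05). Mmp14 (−1.42, adjusted p = 0.252) and Mmp19 (0.30, adjusted p = 0.887) did not pass. Of 19 chemokine and cytokine genes tested, Ccl2, Ccl6, Ccl7, Ccl8 and Ccl12 were lower and none was higher. Ccl8, a monocyte-attracting chemokine, had 114 and 0 CPM against 1572 and 1185 CPM (−5.64 ± 0.77, adjusted p = 0.000343), and 21 UMIs of 1 library made up all of its count in the monocyte-like phagocytes. Ccl7 had 185 and 114 CPM against 1901 and 902 CPM (−3.24 ± 0.36), and Ccl12 38.1 and 35.1 CPM against 329 and 417 CPM (−3.52 ± 0.41).

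Of the 10 lipid genes tested, 6 were lower, among them Fabp5, a fatty acid carrier, with 735 and 902 CPM against 4168 and 4874 CPM (−2.55 ± 0.36, adjusted p = 0.000417). Trem2, a lipid receptor, was lower too (−2.11 ± 0.39, adjusted p = 0.0066). Of 16 genes of lysosomes, Ctsb, Ctsd, Ctsl, Lgmn and Grn were lower, the first with 1209 and 1233 CPM against 6362 and 4181 CPM (−2.15 ± 0.36). C3ar1 and C5ar1, receptors of the complement fragments C3a and C5a, were lower by the same test, with log2 fold changes of −1.81 ± 0.36 and −1.92 ± 0.41. Cbr2, Pltp, Pf4 and Serpinb6a completed the 12 lower genes with the largest changes, at −4.85, −3.68, −3.29 and −3.21.

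All 10 genes that passed in the other direction had at most 838 CPM in either library. Cd209a had 196 and 179 CPM in monocyte-like phagocytes against 0 and 7.45 CPM in C1q macrophages (4.67 ± 0.81, adjusted p = 0.0037), on 36 and 107 UMIs against 0 and 1. Napsa, an aspartic protease, had 561 and 568 CPM against 73.1 and 142 CPM (2.11 ± 0.43, adjusted p = 0.0121). Cytip, which regulates leukocyte adhesion, had 332 and 346 CPM against 73.1 and 67.1 CPM (2.21 ± 0.46, adjusted p = 0.0124). Lsp1, an actin-binding protein of leukocytes, was at 838 and 815 CPM against 219 and 246 CPM (1.70 ± 0.39, adjusted p = 0.0231). H2-DMb1, which helps load peptide onto MHC class II, was higher by 1.86 ± 0.42. Bcl2a1d had 81.7 and 165 CPM against 0 and 29.8 CPM, and Cd24a, Myo1g, Nr4a2 and Traf1 were higher by 2.40, 2.34, 2.06 and 1.77. None of these 10 genes was called higher than in dendritic cells in the comparison below. There Cd24a (−1.91) and H2-DMb1 (−0.84) were called lower.

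No classical monocyte gene passed against C1q macrophages. Of the 11 tested, 0 were called, with a median log2 fold change of 1.16 against 0.02 over all genes. Plac8 had 2151 and 2615 CPM in monocyte-like phagocytes against 951 and 872 CPM (1.32 ± 0.36, adjusted p = 0.0588), and passed in 1 of 9 alternatives. Ly6c2 had 561 and 708 CPM against 329 and 216 CPM (1.27 ± 0.40, adjusted p = 0.111), past the threshold in 0 of 9. Il1b (1.25 ± 0.47, adjusted p = 0.22) and Cxcl2 (0.05 ± 0.38, adjusted p = 0.972) did not pass, and the libraries did not give Cxcl2 the same order: 4530 against 2705 CPM in shMib2 replicate 1 and 4105 against 5470 CPM in shMib2 replicate 2. Of 14 interferon-stimulated genes 0 passed, and of 13 genes of the interferon gamma response only Fcgr4 did, lower by −1.84 ± 0.40.

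**Figure D4:**
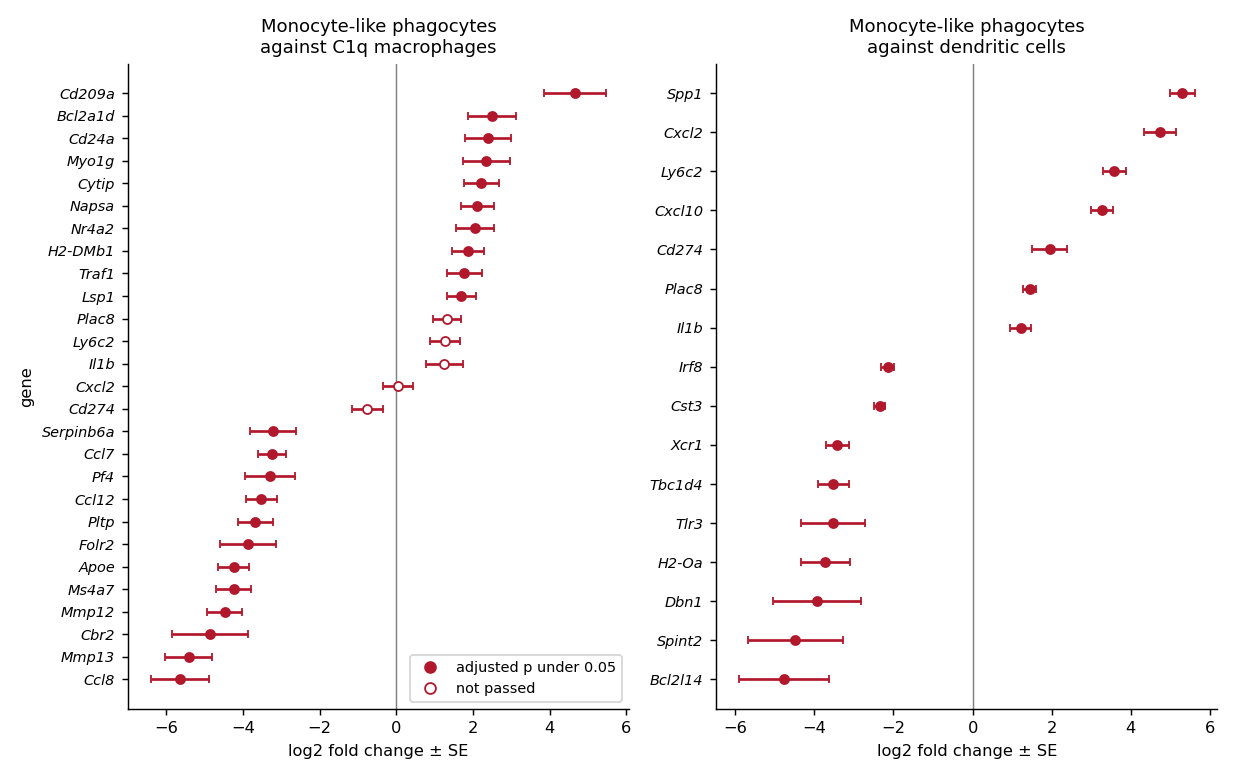
Log2 fold changes with standard errors of monocyte-like phagocytes against C1q macrophages (left) and against dendritic cells (right), from edgeR on sums per class in the 2 shMib2 libraries. Filled points passed an adjusted p of 0.05 and open points did not, and genes with no UMI in dendritic cells are left out. Apoe stands at −4.24 on the left, and Spp1 at 5.30 and Cst3 at −2.35 on the right.

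Set against dendritic cells, more genes differed. Dendritic cells were barcodes with a UMI of Flt3 and at least 2 of H2-Ab1, H2-Aa and Cd74, 23 and 22 cells in the 2 shMib2 libraries. Of 2471 genes tested by edgeR in the same way, 288 were higher in monocyte-like phagocytes (11.7%) and 163 were lower (6.6%), with a median log2 fold change of −0.02 over all genes. Dendritic cells were deeper, at medians of 4135 and 6982.5 UMIs. With cells thinned to 1000 UMIs, 119 genes were higher and 51 lower of 710 tested. DESeq2 called 94 and 22 genes. With the shCtrl library, of 5 and 3 cells, in place of shMib2 replicate 1, 39 and 7 genes passed, and in place of shMib2 replicate 2, 1 and 0, with 110 and 25 at an unadjusted p below 0.05.

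All 11 classical monocyte genes tested were higher, with a list median of 3.79, and the median was the same with the 3 genes at 0 in dendritic cells set to their lower bound. Phagocyte genes and a lack of Flt3 chose the monocyte-like phagocytes, and Flt3 chose the dendritic cells. Genes that vary with these, monocyte genes included, differ in part through the rules. Ly6c2 had 561 and 708 CPM in monocyte-like phagocytes against 44.7 and 57.5 CPM in dendritic cells (3.58 ± 0.29, adjusted p = 8.54e-05, edgeR). Chil3 had 370 and 848 CPM and F13a1, a subunit of coagulation factor XIII, 196 and 309 CPM, and neither had a UMI in dendritic cells. Against 3 counts over both libraries, Chil3 was at least 65.9-fold higher and F13a1 at least 25.3-fold higher. DESeq2 gave these 2 genes an adjusted p of 0.374 and 0.516, and did not call 12 of the 15 genes followed across alternatives in this comparison. Plac8 differed least of those named, with 2151 and 2615 CPM against 974 and 754 CPM (1.45 ± 0.16, adjusted p = 0.000425).

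Chemokines and inflammatory cytokines separated the 2 classes to a similar degree, with 12 of 14 tested genes higher and 0 lower. Cxcl2 had 4530 and 4105 CPM against 17.9 and 268 CPM (4.73 ± 0.41, adjusted p = 0.000122, edgeR). Ccl2 had 833 and 716 CPM against 98.3 and 70.3 CPM (3.18 ± 0.25). Il1b had 1775 and 1946 CPM against 1215 and 486 CPM, a smaller difference of 1.21 ± 0.27 (adjusted p = 0.0147). Cxcl10 had 817 and 1106 CPM against 125 and 76.7 CPM (3.27 ± 0.28), 1 of 6 genes of the interferon gamma response that were higher among 10 tested. Of the interferon-stimulated genes, 8 of 11 were higher, among them Isg15, with 686 and 680 CPM against 348 and 141 CPM (1.56 ± 0.29, adjusted p = 0.00523), and Rsad2 (3.39 ± 0.42).

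Genes associated with tumor macrophages and suppression were higher in 10 of 11 cases tested. Their median was 5.26, or 4.05 with the 4 genes at 0 in dendritic cells at their bound. Spp1 had 1209 and 1248 CPM in monocyte-like phagocytes against 44.7 and 19.2 CPM in dendritic cells (5.30 ± 0.31). Thbs1, thrombospondin 1, had 746 and 528 CPM and no UMI in dendritic cells, at least 51.8-fold higher, and Arg1, with 327 and 142 CPM, was at least 16.6-fold higher. Hmox1 had 321 and 304 CPM against 8.94 and 6.39 CPM (5.26 ± 0.49, adjusted p = 0.000137, edgeR), and Ptgs2, the cyclooxygenase that makes prostaglandins, 773 and 473 CPM against 8.94 and 38.3 CPM (4.45 ± 0.43). F10, coagulation factor X, and Clec4d, a receptor for mycobacterial glycolipids, were at least 19.1-fold and 15.1-fold higher.

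Of 11 dendritic cell genes tested, 6 were lower and 1, Sirpa, was higher. Cst3 had 6860 and 4205 CPM in monocyte-like phagocytes against 27137 and 25966 CPM in dendritic cells (−2.35 ± 0.13). Xcr1 had 38.1 and 28.4 CPM against 366 and 313 CPM (−3.42 ± 0.30), and Irf8 495 and 321 CPM against 1823 and 1572 CPM (−2.14 ± 0.17, adjusted p = 8.54e-05 for Irf8, edgeR). Of 6 MHC class II genes tested, 5 were lower, among them H2-Eb1, with 3033 and 2557 CPM against 7425 and 8038 CPM (−1.52 ± 0.11), and H2-Oa (−3.73 ± 0.62). H2-Ab1, H2-Aa and Cd74 chose the dendritic cells and got no test, and the other MHC class II genes, which vary with them, differ in part through that rule. Bcl2l14, Spint2, Dbn1, Tlr3 and Tbc1d4 completed the lower genes with the largest changes, at −4.77, −4.48, −3.93, −3.53 and −3.52, and the first 3 of these rested on at most 2 UMIs in any sum of monocyte-like phagocytes.

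Cd274, which encodes PD-L1 (chromosome 19, 29367455 to 29388095, plus strand), had 19 UMIs in 70 cells of shMib2 replicate 1, 63 UMIs in 130 cells of shMib2 replicate 2 and 2 UMIs in 5 cells of shCtrl. These were 103, 105 and 143 CPM, and 22.9%, 20% and 20% of the cells had a UMI, against 3.5%, 3.6% and 0% of B cells. The 3 libraries thus gave close levels, and the interval of shCtrl is wide at 2 UMIs. Cd274 was higher than in dendritic cells, 103 and 105 CPM against 26.8 and 25.6 CPM (1.94 ± 0.45, adjusted p = 0.0167, edgeR), but DESeq2 gave an adjusted p of 0.639. Against C1q macrophages, at 146 and 171 CPM, the log2 fold change was −0.75 ± 0.41 (adjusted p = 0.461, edgeR). It was −1.38 (adjusted p = 0.0463, edgeR) when cells with exactly 1 C1q gene were counted as C1q macrophages, which changes both classes. Of the other ligands of T cells and phagocytes, Sirpa, the CD47 receptor, was higher than in dendritic cells by 2.80 ± 0.45 and Lgals9, galectin 9, by 1.41 ± 0.37. Pdcd1lg2, PD-L2, had 2, 2 and 0 UMIs.

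The last comparison, between the libraries labelled shMib2 and shCtrl, rested on 5 cells in shCtrl, fewer than the 20 set as a minimum, and no gene was tested. The genes in this paragraph and the next were chosen after their values were seen, among genes whose intervals did not overlap. The choice did not strictly follow the order of the ratios. Hmox1 (chromosome 8, 75093621 to 75100589, plus strand), which breaks down heme, had 321 CPM in shMib2 replicate 1 (245 to 414), 304 CPM in shMib2 replicate 2 (261 to 351) and 6515 CPM in shCtrl (5246 to 7999). All 5 shCtrl cells had Hmox1, between 1239 and 12248.5 CPM per cell, whereas 31.4% and 30.8% of the cells of the shMib2 libraries had a UMI of it and their medians were 0. B cells had 157, 89.2 and 171 CPM of Hmox1 in shMib2 replicate 1, shMib2 replicate 2 and shCtrl. The highest single cell reached 3848 CPM in shMib2 replicate 1 and 10502 CPM in shMib2 replicate 2, so that single cells overlapped.

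Further genes had lower levels in the shMib2 libraries than in shCtrl. Fth1, the heavy chain of ferritin, was at 11003 and 10498 CPM in the shMib2 libraries and 69306 CPM (65008 to 73814) in shCtrl, with 18793 to 121172 CPM in the 5 cells. Bnip3l was at 142 and 105 CPM in the shMib2 libraries against 931 CPM (496 to 1592), Ero1l at 289 and 169 CPM against 1289 CPM (764 to 2037), and Arg1 at 327 and 142 CPM against 1360 CPM (819 to 2124). Arg1 came from 2 of the 5 shCtrl cells, and Ero1l from all 5. Ero1l was also at 1176, 363 and 850 CPM in B cells of shMib2 replicate 1, shMib2 replicate 2 and shCtrl. Those sums include B cell barcodes of up to 36907, 71454 and 42459 UMIs, against medians of 841.5, 1464.5 and 843 UMIs. Whether Ero1l in the shCtrl cells is background was not tested. In the other direction, the globin gene Hbb-bs had the largest ratio of the genes considered. It was at 849 and 1730 CPM in the shMib2 libraries against 71.6 CPM (1.81 to 399) in shCtrl, which is 1 UMI. Crip1 was at 3169 and 3734 CPM in the shMib2 libraries against 716 CPM (343 to 1317) in shCtrl. Cd52, a surface glycoprotein of leukocytes, was at 2619 and 2572 CPM against 430 CPM (158 to 935). Lsp1 had 838 and 815 CPM against 71.6 CPM (1.81 to 399), a single UMI. Whether these differences belong to the groups, to the pooled mice of a library or to 5 single cells cannot be told apart.

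**Figure D5:**
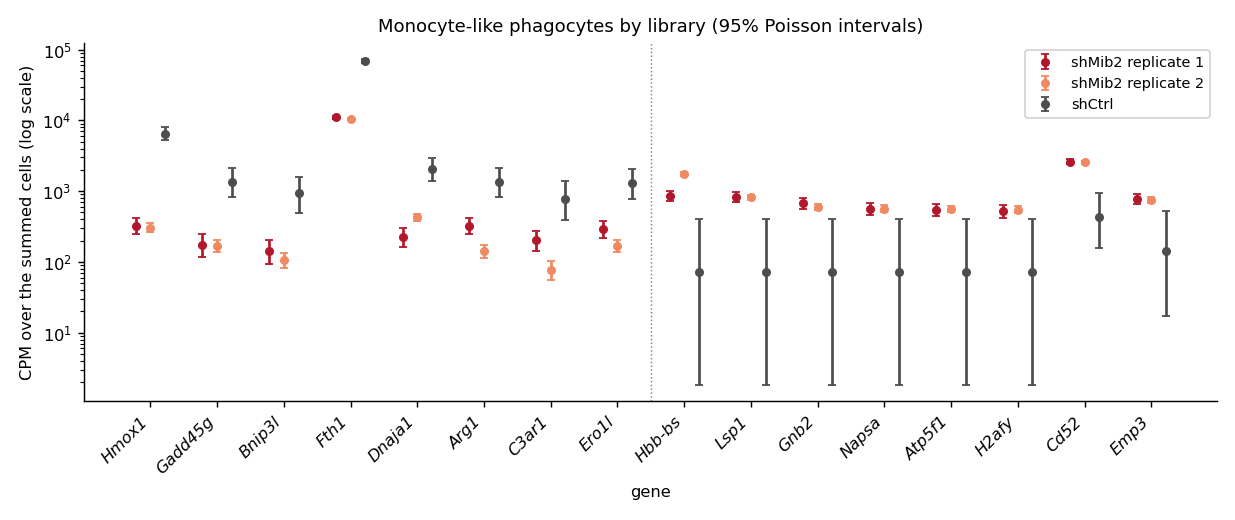
CPM of 16 genes over the summed monocyte-like phagocytes of shMib2 replicate 1, shMib2 replicate 2 and shCtrl, on a log axis, with exact 95% Poisson intervals of the sums. The 8 genes left of the dotted line had lower and the 8 right of it higher levels in the shMib2 libraries, and they were chosen for the size of this difference. Hmox1 stands at 321, 304 and 6515 CPM.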

How the data were processed

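The authors processed single-cell RNA-Seq of dissociated tumors (5′ V(D)J kit) with Cell Ranger 4.0.0 on mm10, and the deposited filtered matrices hold UMI counts of 32285 genes without normalization. Barcodes under 200 genes or over 20% mitochondrial UMIs were dropped, and classes were rebuilt by gene rules. The members and gene lists were chosen with earlier results of these data known.

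Counts summed per class (10 cells or more) and library were tested with edgeR 4.0.16 (quasi-likelihood, TMM, filterByExpr, library as block, Benjamini-Hochberg) in the 2 shMib2 libraries. The code was also run on counts simulated with the same dispersion for all genes, which does not measure the error rate in these data. Both classes of a block come from the same pooled tumors. Only 1 residual degree of freedom remains, so p-values rest on spread borrowed across genes and cover these 2 libraries alone. Rule genes were not tested. Cells were thinned to 1000 UMIs with a fixed seed. Doublets were scored against 30 neighbours and kept. Alternatives included DESeq2 1.42.0, other filters, thinning and leaving out each library.

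Named genes were up to 12 per direction with the largest change against C1q macrophages and 6 against dendritic cells, past the threshold, with 50 CPM or more on average in the higher class and 1 direction in both libraries, and members of 33 lists (355 of 358 genes found). Those between shMib2 and shCtrl were chosen after their values were seen. Coordinates are from GENCODE vM21.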

Additional observations from a re-analysis of the deposited data

How the results depend on the processing

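The ratio of the share of monocyte-like phagocytes among all cells in the libraries labelled shMib2 to that in shCtrl lay between 14.4 and 31.5 when either shMib2 library was left out. It moved to 5.04 among barcodes with Dct and Pmel under 0.5% and to 3.35 among those with a Ptprc UMI, which changes the denominator, and was 3.35 or more under the 11 alternatives tried. The ratio among phagocytes, 0.811, was 0.769 to 0.854 without either library and 1.01 with at least 2 of the 8 genes. It was 0.70 with 0 C1q genes in the cells, a setting that counts cells with exactly 1 C1q gene as C1q macrophages.

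Against C1q macrophages (10 genes higher, 61 lower), DESeq2 gave 0 and 20, DESeq2's size factors in edgeR 0 and 11, at least 50 UMIs in all 0 and 8 (113 and 143 unadjusted), thinning to 1000 UMIs 5 and 22, and no filter on low counts 5 and 21. The last moves the median over all genes to 0.46. Leaving doublets out gave 17 genes higher, and counting cells with exactly 1 C1q gene as C1q macrophages gave 23 lower. Leaving out cells with Xcr1, Clec9a or Cd209a gave 0 and 1. Against dendritic cells (288 and 163), DESeq2 gave 94 and 22, thinning 119 and 51, no filter 456 higher, with a median over all genes of 0.27, and 0 C1q genes 98 lower. Leaving out a shMib2 library, which brings in shCtrl with 5 and 3 cells, gave 1 to 39 higher and 0 to 7 lower. Thinning and leaving cells out use fewer counts; for the other settings the cause was not tested.

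Without the replicate block, 10 and 60 genes passed against C1q macrophages and 294 and 156 against dendritic cells. Of 197 values for 25 genes named against C1q macrophages, 120 kept their side of the threshold, 75 lost it and 2 gained it. Of 140 values for 15 genes against dendritic cells, 118 kept it and 22 lost it, and 0 of these values changed direction. Leaving out a library was not run against C1q macrophages, since shCtrl had 0 of them, nor was any alternative of the untested comparison between shMib2 and shCtrl. Depth limits what 5 cells of shCtrl can show: 3 UMIs there are 215 CPM.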

Other observations

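A list of 10 S100, galectin and annexin genes summed to 16774, 18109 and 21694 CPM in shMib2 replicate 1, shMib2 replicate 2 and shCtrl, with S100a8 and S100a9 at or near 0. S100a4 had 3027 CPM in shMib2 replicate 1, 3763 CPM in shMib2 replicate 2 and 1146 CPM in shCtrl. In the shMib2 libraries S100a4 was higher than in dendritic cells, at 384 and 997 CPM (2.28 ± 0.21, adjusted p = 0.000137, edgeR), but its difference from C1q macrophages, at 1280 and 1520 CPM, did not pass (1.19 ± 0.35, adjusted p = 0.0927). Of 8 genes of this list tested, annexins included, 6 were higher than in dendritic cells and 0 were called against C1q macrophages. Ctsb, a cathepsin, lay between both classes: it had 1209 and 1233 CPM, against 6362 and 4181 CPM in C1q macrophages and 143 and 192 CPM in dendritic cells, and both differences passed. Ctsa, Ctsc, Ctss and Ctsz were called higher than in dendritic cells but not called against C1q macrophages.

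Immediate early and heat shock genes were detected in all libraries. Hspa1a, a heat shock protein, had 784, 720 and 2792 CPM in shMib2 replicate 1, shMib2 replicate 2 and shCtrl, and Jun 621, 473 and 1217 CPM. Of 14 immediate early and heat shock genes, 9 were higher than in dendritic cells, and 1, Egr1, was lower than in C1q macrophages. Globin RNA was also present: Hbb-bs had a UMI in 38.6%, 40% and 20% of the cells and in 32.6%, 37.1% and 20.9% of B cells. In shMib2 replicates 1 and 2, Hbb-bs was at 849 and 1730 CPM in monocyte-like phagocytes. It was at 146 and 4799 CPM in their C1q macrophages and at 107 and 288 CPM in their dendritic cells, and was called higher than in the latter. Whether Hbb-bs is background in these cells was not tested. Mki67, a proliferation gene, had 0, 14 and 0 UMIs, Tubb5, a tubulin, 61, 175 and 6, Stmn1 29, 47 and 0, and Pcna 26, 67 and 1.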
